A study of Mus musculus with 64 samples.

Results

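The genes described here are 33 mouse genes of glycolysis and of the response to low oxygen. They were chosen by name from what the genes are known to do, with earlier results of these data known, and all 33 were found among the 55809 genes of the count tables. They were followed in 64 bulk RNA-seq libraries of CD4+ T cells in which Foxp3, the transcription factor that defines regulatory T (Treg) cells, was absent, switched on, naturally expressed or degraded as a protein. Glycolysis splits glucose into pyruvate in the cytosol. Lactate dehydrogenase then turns pyruvate into lactate, or the mitochondrial pyruvate carrier and pyruvate dehydrogenase pass it on for oxidation. HIF-1, whose oxygen-labile subunit is encoded by Hif1a, raises transcription of many of these genes when oxygen is low or when T cells are activated, and the prolyl hydroxylases encoded by Egln1 and Egln3 mark that subunit for destruction. Activated T cells are known for taking up glucose and releasing lactate, whereas Treg cells are described as relying more on oxidative metabolism.

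The libraries fell into 28 groups. The first 44 libraries, 2 per group, came from CD44 lo CD62L hi (resting) and CD44 hi CD62L lo (active) cells. Their KIKO groups came from females heterozygous for Foxp3-LSL, an allele in which a loxP-flanked Thy1.1 and STOP cassette blocks Foxp3 until Cre removes it and a GFP-tagged gene is restored. The plusFoxp3 groups carried Cd4-CreERT2 (genotype Foxp3-LSLCD4-CreERT2), a tamoxifen-activated Cre driven by the T cell gene Cd4. The minusFoxp3 groups were littermates without Cre (Foxp3-LSLCD4-WT), whose sorted cells had the Foxp3 locus turned on but made no Foxp3 protein. Both were taken at D0 without treatment, and on days 3, 7, 14 and 28 (D3 to D28) after 4-hydroxytamoxifen, so that before treatment both genotypes lacked Foxp3. GFP Treg cells came from untreated Foxp3GFP mice and had expressed Foxp3 throughout their development. Because the mice are heterozygous and Foxp3 is X-linked, cells using the other, intact allele remained in every KIKO host.

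The remaining 20 libraries came from mice in which Foxp3 was fused to an auxin-inducible degron, with a ZsGreen reporter and Cre made from the same locus. In the TIR1 groups (Foxp3-AID ROSA26-TIR1(F74G)), that Cre switches on a plant E3 ligase at ROSA26 that destroys the fusion protein when the auxin analog 5-ph-IAA is given. The WT groups (Foxp3-AID ROSA26-WT) lacked the ligase and, per the study's methods, were also given 5-ph-IAA, for 7 days. These cells were adult CD73- thymic Treg cells (3 TIR1, 3 WT), adult active Treg cells of pooled spleen and lymph nodes (3 and 3), and Treg cells of spleen and lymph nodes of infant mice (4 and 4). The labels gave no age of the animals. The methods gave 6 to 10 weeks or 1 day as the ages at which mice were used. They describe the adult degron mice as females heterozygous for Foxp3-AID, so that cells using the intact allele remained in them. For its neonatal experiments the study names hemizygous males (Foxp3-AID/y), without an intact allele, and reports autoimmune disease after degradation. Sex, this genotype and age thus all differ between the adult and infant degron groups.

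Library totals ranged from 27753211 to 57419138 counted fragments. The group median of Foxp3 mRNA was 51.0 to 75.6 CPM (counts per 1000000 counted fragments of a library) in the minusFoxp3 groups and in both genotypes at D0, 488 to 613 CPM in the plusFoxp3 groups of D3 to D28, and 646 and 776 CPM in resting and active GFP Treg cells. In TIR1 and WT cells it was 157 and 158 CPM in the thymus, 83.4 and 104 CPM in active cells and 357 and 382 CPM in infants. Summed Treg marker genes were 999 to 1576 CPM in the minusFoxp3 libraries and 1903 to 3078 CPM in the plusFoxp3 libraries of D3 to D28. A sum of 5 T cell genes was between 4657 and 11640 CPM in all 64 libraries, whereas the B cell gene Ms4a1 was at most 1.84 CPM. The immunoglobulin gene Ighm nevertheless moved with Foxp3, from 219 to 642 CPM in the minusFoxp3 libraries to 681 to 2331 CPM in the plusFoxp3 libraries of D3 to D28. In GFP Treg cells Ighm was at 2121 to 2123 CPM (resting) and 3754 to 3902 CPM (active). Summed proliferation genes were also shifted, and their ranges are given beside results below. Early-response and heat shock genes that rise with cell handling (summed) differed widely between libraries of one group, as at 4085 and 14810 CPM in active minusFoxp3 D7 cells, and were 2791 to 16020 CPM in the 44 libraries. The part of Ighm, of proliferation and of handling genes in those results was not tested. For the 12 adult degron libraries, the library name inside each count table and the sample to which the table is attached disagreed between TIR1 and WT, and the name inside the table was used. Under the attachment, each adult TIR1 to WT difference has the opposite sign. In all 8 infant libraries, title and genotype label gave opposite genotypes, so these groups are called titled TIR1 and titled WT. With the names inside the tables, summed Treg marker genes (5 genes, Foxp3 included) were lower in TIR1 than in WT libraries without overlap, at 2224 to 2494 against 2661 to 2791 CPM in the thymus and 1852 to 2037 against 2173 to 2252 CPM in active cells. Foxp3 mRNA was 144 to 168 against 144 to 181 CPM in the thymus and 76.7 to 93.4 against 99.95 to 127 CPM in active cells. In infants the titled groups overlapped in both measures. The library of titled WT replicate 4 lay with the titled TIR1 libraries on the first principal component (-0.19, against -0.353 to -0.223 for titled TIR1 and 0.424 to 0.487 for the other titled WT libraries). Infant results are therefore given with and without it. Nothing in the labels shows that the libraries of a group came from separate animals, so p-values measure the spread between these libraries, which may be technical. All p-values below are from the quasi-likelihood test of edgeR, Benjamini-Hochberg adjusted over all genes tested unless stated otherwise, and a gene is said to have risen or fallen where the adjusted p was below 0.05.

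Per kilobase of exon, the most abundant members in the 44 resting, active and GFP Treg libraries were lactate dehydrogenase and enzymes of glycolysis. Ldha stood at a mean of 410 CPM per kb, followed by the pyruvate kinase gene Pkm at 248, the enolase gene Eno1 at 181 and the aldolase gene Aldoa at 170. Hif1a came next at 60.5 CPM per kb, with the triosephosphate isomerase gene Tpi1 at 58.1 and the glucose-6-phosphate isomerase gene Gpi1 at 50.9. The glucose transporter genes Slc2a1 (GLUT1) and Slc2a3 (GLUT3) were lower, at 19.4 and 11.2 CPM per kb. The hexokinase genes differed widely, with Hk1 at 20.8 and Hk2 at 0.770 CPM per kb. Low levels were also seen for Pfkfb4, a maker of the phosphofructokinase activator fructose-2,6-bisphosphate, at 1.59 CPM per kb, for the lactate exporter gene Slc16a3 at 1.91 and for the vascular growth factor gene Vegfa at 0.0977. Across these 44 libraries the highest and lowest values lay far apart for Ldhb (8.81 to 114 CPM), Slc2a3 (19.3 to 231 CPM), Slc16a3 (3.81 to 45.0 CPM) and Egln3 (4.41 to 46.5 CPM). They lay close together for Gpi1 (275 to 381 CPM), for Ldha (1035 to 1785 CPM), for Pfkp (176 to 328 CPM), for the phosphofructokinase gene Pfkl (110 to 221 CPM) and for the oxygen sensor Egln1 (78.2 to 139 CPM).

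Elsewhere in the genome, 12 members have near-identical copies (at least 90% identity over at least 200 bases). The 44 libraries were also counted with other settings than the degron libraries. Levels were therefore not compared between the 3 sets of libraries. Gapdh, the glyceraldehyde-3-phosphate dehydrogenase gene, has 175 such copies, and the gene itself held 38.4% of the counts of gene and copies in the 44 libraries, 29.8% in the adult degron libraries and 97.1% in the infant libraries. The stated settings of the adult degron and infant libraries were the same, and the cause of the gap between their Gapdh shares was not tested. The level of Gapdh, at 15.3 CPM per kb in the 44 libraries, is uncertain for this reason. Pgk1 and Pgam1, at 14.9 and 14.6 CPM per kb there, held 97.2% and 95.6% of the counts of gene and copies. Eno1 held 95.6%, so the levels of these 3 carry a smaller uncertainty of this kind. The mitochondrial pyruvate carrier genes Mpc1 and Mpc2 held 62.6% and 88.0% of theirs. Exons of Mpc1, Ankrd37, Bnip3, Pdha1, Slc16a3, Hif1a and Pfkp overlap a gene on the other strand over 5.58% to 23.3% of their exon length, and reads were counted without strand.

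The promoters of the members were read from the RefSeq table for GRCm38.p6, which holds windows of 300 bases (250 before and 50 after a start) for 32 of the 33 members; Slc2a3 has no entry. The letters ACGTG, the core of the hypoxia response element, were searched on both strands, so that CACGTG counts as 2 overlapping matches. A match was found in 24 of 47 windows of members (51.1%) and in 19.6% of all 32851 windows of the table. Of the 32 members, 21 had a match in at least 1 window, and the 11 without were Gpi1, Pfkl, Pfkp, Pfkfb4, Tpi1, Eno1, Ldhb, Pdk1, Pdha1, Mpc1 and Mpc2. A match describes the letters and shows no binding. Shown first are the windows of Bnip3, which encodes a mitophagy receptor, P4ha1, which encodes a collagen prolyl hydroxylase subunit, and Aldoc, the aldolase C gene, because these genes were higher with Foxp3 or in GFP Treg cells in the results below. That of Egln3 is shown because its difference between active and resting cells without Foxp3 was the largest among the members. All windows shown hold a match. Pdk1 and Ldhb, which have none, and Hk2 and Slc16a3, which do, were also higher with Foxp3 or in GFP Treg cells and are not shown. A second window of Aldoc (chr11:78323948-78324247) holds no match. Matches are in capitals, and each window is written 5' to 3' on the strand of its gene.
Bnip3 (chr7:138909457-138909756, minus strand): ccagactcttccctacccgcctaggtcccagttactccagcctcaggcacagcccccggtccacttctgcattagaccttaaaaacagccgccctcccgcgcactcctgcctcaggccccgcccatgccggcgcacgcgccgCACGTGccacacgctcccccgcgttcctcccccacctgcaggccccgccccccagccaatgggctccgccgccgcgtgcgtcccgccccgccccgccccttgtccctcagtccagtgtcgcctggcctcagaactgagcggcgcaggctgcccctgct
P4ha1 (chr10:59323046-59323345, plus strand): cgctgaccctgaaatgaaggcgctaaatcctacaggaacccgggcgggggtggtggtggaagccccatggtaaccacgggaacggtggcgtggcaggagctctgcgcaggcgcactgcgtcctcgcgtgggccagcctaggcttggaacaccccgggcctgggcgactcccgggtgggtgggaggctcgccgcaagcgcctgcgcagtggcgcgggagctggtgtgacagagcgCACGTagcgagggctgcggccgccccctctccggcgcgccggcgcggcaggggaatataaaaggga
Aldoc (chr11:78322823-78323122, plus strand): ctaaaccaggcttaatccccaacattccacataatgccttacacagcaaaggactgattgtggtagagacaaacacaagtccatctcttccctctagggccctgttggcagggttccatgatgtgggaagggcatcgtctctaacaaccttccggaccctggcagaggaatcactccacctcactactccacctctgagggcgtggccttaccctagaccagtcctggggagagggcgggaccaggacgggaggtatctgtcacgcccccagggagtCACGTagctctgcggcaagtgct
Egln3 (chr12:54203825-54204124, minus strand): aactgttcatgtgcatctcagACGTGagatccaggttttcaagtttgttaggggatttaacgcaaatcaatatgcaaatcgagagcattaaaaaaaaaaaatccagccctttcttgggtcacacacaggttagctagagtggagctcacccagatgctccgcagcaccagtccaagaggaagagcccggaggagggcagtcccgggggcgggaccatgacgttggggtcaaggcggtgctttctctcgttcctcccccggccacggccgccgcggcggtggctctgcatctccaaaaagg

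In resting cells, Slc2a3, a high-affinity glucose transporter gene (GRCm39 chr6:122704768-122778599, minus strand), was higher in plusFoxp3 than in minusFoxp3 cells at D3, D14 and D28. At D28, P4ha1 (chr10:59159118-59209126, plus strand) and the hexokinase gene Hk2 (chr6:82702006-82751435, minus strand) were also higher. The other 30 members did not pass the test on any day. These groups also differed in Cre genotype and, per the study's methods, in the reporter by which cells were sorted. The part of these in the differences was not tested. Slc2a3 stood at 33.7 and 54.3 CPM in minusFoxp3 and 47.8 and 51.3 CPM in plusFoxp3 at D0, where the groups overlapped. At D3 it was 36.6 and 30.1 CPM without Foxp3 against 101 and 90.6 CPM with it. At D28 it was 42.0 and 52.2 CPM against 131 and 150 CPM. From D3 on, no plusFoxp3 library overlapped a minusFoxp3 library of the same day. The log2 fold change was 1.59 at D3 (SE 0.24, adjusted p = 0.0141), 1.12 at D7 (SE 0.24, adjusted p = 0.122), 1.502 at D14 (SE 0.24, adjusted p = 0.00929) and 1.59 at D28 (SE 0.24, adjusted p = 0.00397). The calls rest on few libraries: that at D3 was lost without any one of its 4 libraries (log2 fold change 1.51 to 1.75), that at D14 without minusFoxp3 replicate 1 (1.25) or plusFoxp3 replicate 1 (1.61), and that at D28 without minusFoxp3 replicate 1 (1.41). In bulk libraries, fewer cells that express a gene and less of its RNA in each cell cannot be told apart.

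P4ha1 was at 55.1 and 63.9 CPM in resting minusFoxp3 and 119 and 170 CPM in plusFoxp3 at D28. The groups had also been apart at D14, at 71.5 and 79.5 CPM against 124 and 165 CPM. It rose at D28 by 1.30 on the log2 scale (SE 0.21, adjusted p = 0.00748), while at D14 the difference of 0.97 did not pass (adjusted p = 0.085). The D28 call of P4ha1 was lost without minusFoxp3 replicate 1 (1.16), minusFoxp3 replicate 2 (1.42) or plusFoxp3 replicate 2 (0.99). Hk2, the inducible hexokinase that traps glucose in the cell, was low throughout, at 1.12 and 1.69 CPM in minusFoxp3 and 7.51 and 4.18 CPM in plusFoxp3 at D28. Its log2 fold change was 2.07 (SE 0.46, adjusted p = 0.0407), and the call was lost without minusFoxp3 replicate 1 (1.76), minusFoxp3 replicate 2 (2.39) or plusFoxp3 replicate 1 (1.61). The minusFoxp3 cells had themselves stood at 2.99 and 4.16 CPM of Hk2 at D0, with a log2 fold change of -1.36 from D0 to D28 (SE 0.45, adjusted p = 0.999). Without minusFoxp3 replicate 1, minusFoxp3 replicate 2, plusFoxp3 replicate 1 or plusFoxp3 replicate 2, the number of members called at D28 was 0, 1, 2 and 2, where 0.156%, 0.214%, 0.341% and 0.526% of genes passed. Among the other genes described in each comparison, the D28 log2 fold change in resting cells was 0.35 for Slc2a1 (SE 0.15, adjusted p = 0.45), 0.39 for Ldha (SE 0.17, adjusted p = 0.486), -0.15 for Pdk1 (SE 0.24, adjusted p = 0.936) and -0.21 for Hif1a (SE 0.33, adjusted p = 0.936).

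Counted over all members in resting cells, 0 of 33 passed at D0, 1 at D3, 0 at D7, 1 at D14 and 3 at D28. Of the 20520 genes tested, 0.00487%, 0.0487%, 0.0585%, 0.268% and 0.945% passed on those days. The median log2 fold change of the members was 0.16, 0.18, 0.21, 0.16 and 0.09, against -0.0003, -0.0477, -0.0034, -0.0036 and 0.0056 for all genes tested, and it was thus above 0 at D0 as well, when neither genotype had been treated. At D0, 2 members had an unadjusted p below 0.05 in edgeR and DESeq2 called 0, but leaving out plusFoxp3 replicate 2 left replicate 1 alone, which stood apart from every other resting library on the second principal component (0.905, against -0.246 to 0.116), and 3 members were then called, where 10.2% of genes passed. At D7, 7 members had an unadjusted p below 0.05 and DESeq2 called 1 (0.716% of genes). Over all genes tested, 2219 at D0 and 1172 at D7 had an unadjusted p below 0.05 in edgeR. Tpi1 had plusFoxp3 libraries of 207 and 123 CPM and minusFoxp3 libraries of 121 and 110 CPM at D28, an example of a member with a wide spread between replicates.

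An order shared by all the later days was counted as a description. Slc2a3, Ldha and P4ha1 had both plusFoxp3 libraries above both minusFoxp3 libraries on each of D3, D7, D14 and D28 in resting cells, as did 1.62% of all genes tested. Ldha had 1522 and 1374 CPM against 1332 and 1184 CPM at D3, and 1656 and 1347 CPM against 1271 and 1043 CPM at D28. Aldoa had both plusFoxp3 libraries below on all 4 days, as did 1.47% of genes, with 515 and 519 CPM against 674 and 657 CPM at D3. At D0 the order for Aldoa was the opposite, at 790 and 630 CPM in plusFoxp3 and 611 and 604 CPM in minusFoxp3. Slc2a1, Hk2, Aldoc and Slc16a3 were above on 3 of the 4 days, and Eno1 was below on 3. On D7, both plusFoxp3 libraries of Slc2a1 were below, at 67.4 and 69.6 against 81.7 and 70.35 CPM. At D0, before treatment, its plusFoxp3 libraries were already above, at 87.4 and 69.8 against 66.0 and 69.6 CPM. How many of all genes kept an order on 3 days was not counted, so these 3-day orders have no background. Summed proliferation genes were 114 to 212 CPM in the resting minusFoxp3 libraries and 161 to 747 CPM in the plusFoxp3 libraries of D3 to D28, and their part in these orders was not tested. At D14 the summed handling genes also parted the groups, at 6624 to 14940 CPM in resting minusFoxp3 and 2791 to 5896 CPM in plusFoxp3 cells.

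**Figure D1:**
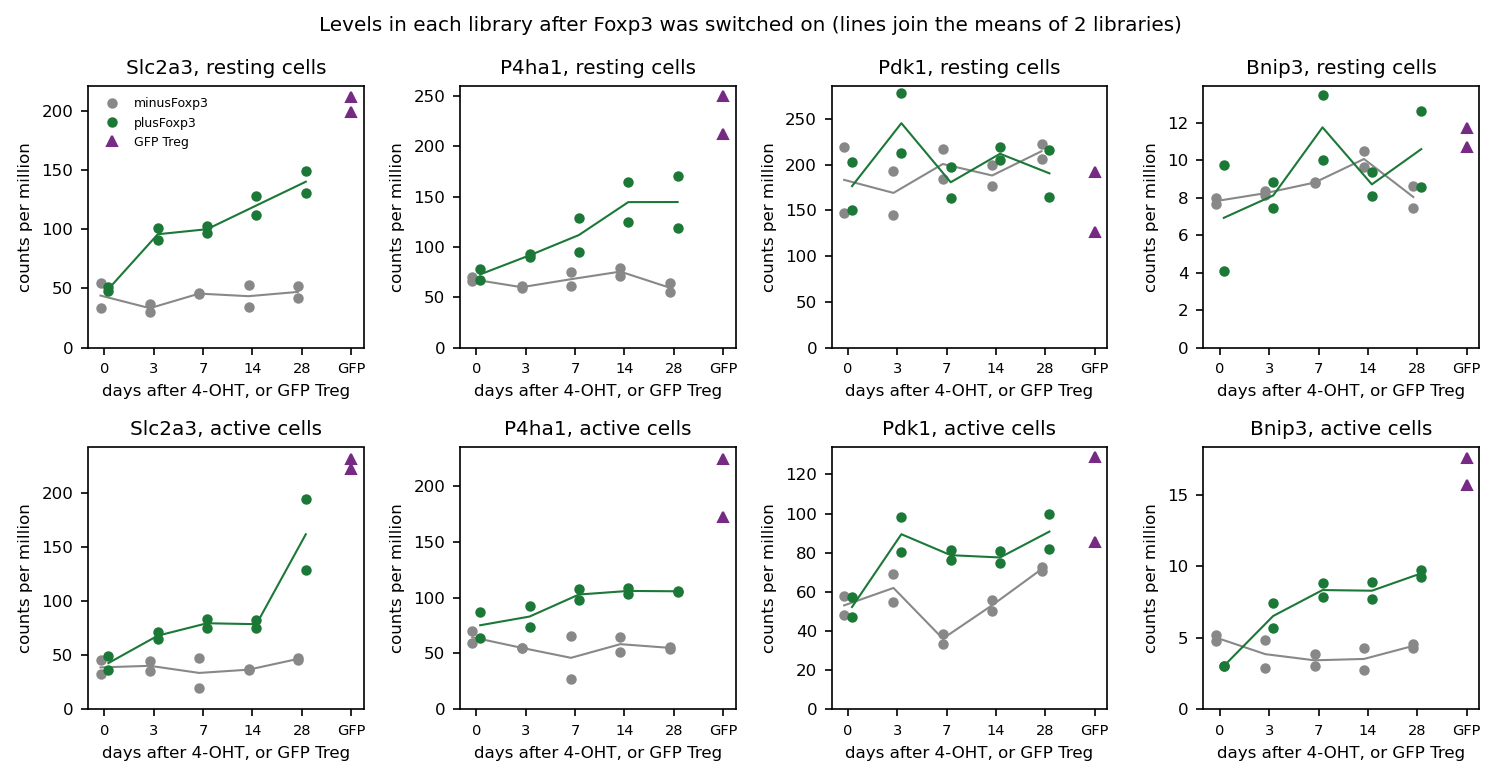
CPM (y axis) of Slc2a3, P4ha1, Pdk1 and Bnip3 by day after 4-hydroxytamoxifen (x axis) in resting cells (top row) and active cells (bottom row); each point is a library, lines join the means of 2 libraries, grey is minusFoxp3, green is plusFoxp3 and purple triangles are GFP Treg cells. Slc2a3 in plusFoxp3 cells reached 131 and 150 CPM (resting) and 194 and 129 CPM (active) at D28, above the minusFoxp3 libraries of that day.

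In active cells, the members called after Foxp3 was switched on were Pdk1 and Bnip3 at D7 and Slc2a3 at D28. Pdk1 (chr2:71703568-71734202, plus strand) encodes a kinase that inactivates pyruvate dehydrogenase. It was 33.5 and 38.5 CPM in minusFoxp3 and 81.3 and 76.1 CPM in plusFoxp3 at D7, a rise of 1.17 on the log2 scale (SE 0.20, adjusted p = 0.0118). Its call was lost without minusFoxp3 replicate 1 (1.08) or plusFoxp3 replicate 1 (1.09). On all 4 later days its plusFoxp3 libraries stood above, but by D28 the minusFoxp3 libraries were at 70.4 and 72.7 CPM against 81.8 and 99.8 CPM, and the log2 fold change was 0.35 (SE 0.20, adjusted p = 0.589).

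Bnip3 (chr7:138492565-138511248, minus strand) had 3.85 and 2.99 CPM in active minusFoxp3 and 7.84 and 8.85 CPM in plusFoxp3 at D7. At D28 it had 4.57 and 4.29 CPM against 9.74 and 9.28 CPM, and at D0 4.80 and 5.22 CPM against 3.00 and 3.04 CPM. The order of the groups at D0 was thus the opposite of that on the later days. The log2 fold change was 1.32 at D7 (SE 0.28, adjusted p = 0.0461), 1.25 at D14 (SE 0.28, adjusted p = 0.0564) and 1.11 at D28 (adjusted p = 0.0582). The D7 call of Bnip3 was lost without minusFoxp3 replicate 1 (1.52), plusFoxp3 replicate 1 (1.39) or plusFoxp3 replicate 2 (1.29). Slc2a3 was 47.4 and 45.4 CPM in minusFoxp3 and 194 and 129 CPM in plusFoxp3 at D28, a log2 fold change of 1.81 (SE 0.32, adjusted p = 0.00499), which no longer passed without minusFoxp3 replicate 1 (1.86) or minusFoxp3 replicate 2 (1.75). At D3 it was 35.1 and 44.9 CPM against 64.5 and 71.2 CPM, and at D7 19.3 and 47.6 CPM against 83.7 and 75.0 CPM.

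The active D7 comparison turned on minusFoxp3 replicate 1, the library farthest out on the second principal component of the active libraries (0.577, against -0.312 to 0.285). With it as the lone minusFoxp3 library (without replicate 2), 8 members were called, of which Pdk1, Slc2a1, Slc2a3, Bnip3, P4ha1, Hk1 and Pfkm were higher and Mpc2 lower, and 11.7% of genes passed. Without it, 0 members were called and 0.173% of genes passed. P4ha1 was at 26.6 CPM in that library and 65.3 CPM in replicate 2, with 98.0 and 108 CPM in plusFoxp3. With both libraries, its log2 fold change was 1.199 (adjusted p = 0.0832), that of Slc2a3 was 1.29 (adjusted p = 0.0851) and that of Slc2a1 was 0.78 (adjusted p = 0.0817), with Slc2a1 at 33.6 and 47.7 CPM against 68.2 and 67.7 CPM. Leaving out plusFoxp3 replicate 1 or replicate 2 left 0 and 1 members called (0.135% and 0.188% of genes).

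Over all members in active cells, 0 of 33 passed at D0, 0 at D3, 2 at D7, 0 at D14 and 1 at D28, where 0.00481%, 0.274%, 0.568%, 0.732% and 1.85% of 20776 genes passed. The median log2 fold change of the members was 0.05, 0.13, 0.12, -0.05 and -0.0017, against 0.0081, -0.0056, -0.0225, 0.0266 and 0.0274 for all genes tested. At D0, D3 and D14, an unadjusted p below 0.05 in edgeR was found for 2, 5 and 12 members, and DESeq2 called 0, 0 and 3 (2.49% of genes at D14). Among the 20776 genes tested, 951, 1537 and 2110 had an unadjusted p below 0.05 on those days. At D28, Slc2a1 had a log2 fold change of 0.26 (SE 0.19, adjusted p = 0.735), Hk2 -0.13 (SE 0.42, adjusted p = 0.976), Ldha -0.13 (SE 0.16, adjusted p = 0.888) and Hif1a -0.0017 (SE 0.23, adjusted p = 0.999). The lactate dehydrogenase B gene Ldhb, whose subunit favours the conversion of lactate to pyruvate, was 13.0 and 12.6 CPM in minusFoxp3 and 23.5 and 51.7 CPM in plusFoxp3 at D28 (log2 fold change 1.56, adjusted p = 0.0629), a wide gap between replicates. Without plusFoxp3 replicate 1, 2 members were called at D28, where 1.66% of genes passed.

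In active cells, Slc2a3, Aldoc, Pdk1, Bnip3 and P4ha1 had both plusFoxp3 libraries above both minusFoxp3 libraries on each of the 4 later days, as did 1.33% of genes, and Aldoa had both below, as did 1.55%. Slc2a3 and P4ha1 above and Aldoa below were thus seen in both states. Aldoc was at 20.4 and 16.6 CPM in plusFoxp3 and 13.4 and 12.2 CPM in minusFoxp3 at D28. Aldoa was at 644 and 637 CPM against 763 and 765 CPM. Slc2a1 was above on 3 of the 4 days, but also at D0, at 52.7 and 59.9 against 52.3 and 49.5 CPM. Pfkfb3, Eno1 and Ldha were below on 3, so that Ldha stood above in resting and mostly below in active cells. As in resting cells, the share of all genes with an order on 3 days was not counted. Summed proliferation genes of active cells were 237 to 595 CPM in minusFoxp3 and 202 to 871 CPM in the plusFoxp3 libraries of D3 to D28, and handling genes at D14 were 6396 to 14790 against 3978 to 6312 CPM.

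To ask whether the switch from minusFoxp3 to plusFoxp3 at D28 differed between active and resting cells, the difference of the 2 log2 fold changes was tested. It passed for 0 of 33 members (0.0818% of 20790 genes passed), 3 members had an unadjusted p below 0.05 in edgeR and DESeq2 called 0. An unadjusted p below 0.05 was found for 1160 of all genes, and DESeq2 called 67. The median difference, active minus resting, was -0.0715 for the members and 0.0081 for all genes. Hk2 had the value of -2.21 (SE 0.62, adjusted p = 0.341), and Slc2a1, Ldha, Pdk1 and Hif1a had -0.10, -0.52, 0.50 and 0.20, with an adjusted p of 0.843 for Ldha.

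GFP Treg cells, in which Foxp3 had been on throughout, were compared with untreated cells without Foxp3. Among resting cells, Slc2a3, P4ha1 and Aldoc were higher in GFP Treg than in minusFoxp3 D0 cells. Slc2a3 was 212 and 199.5 CPM against 33.7 and 54.3 CPM, a log2 fold change of 2.24 (SE 0.24, adjusted p = 6.54e-05). P4ha1 was 250.2 and 212 CPM against 65.9 and 69.8 CPM, a log2 fold change of 1.78 (SE 0.22, adjusted p = 0.000163). Both passed whichever library was left out. Aldoc (chr11:78213794-78218607, plus strand) was 19.1 and 17.6 CPM against 5.25 and 6.60 CPM, a log2 fold change of 1.64 (SE 0.36, adjusted p = 0.0174), which no longer passed without any one of the 4 libraries (1.46 to 1.87). These 3 of 33 members stand beside 2.91% of all genes, and the medians were 0.19 for members and -0.0116 for all genes. Slc2a1 had 0.21 (SE 0.15, adjusted p = 0.673), Hk2 -0.05 (SE 0.43, adjusted p = 0.986), Ldha 0.25 (SE 0.17, adjusted p = 0.634), Pdk1 -0.20 (SE 0.24, adjusted p = 0.87) and Hif1a 0.57 (SE 0.33, adjusted p = 0.551). Summed proliferation genes were 260 to 317 CPM in GFP Treg and 120 to 163 CPM in minusFoxp3 D0 cells, and Ighm, at 2121 to 2123 against 530 to 571 CPM, made up most of a B cell list of 5 genes.

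Among active cells, 9 members passed, 7 higher and 2 lower in GFP Treg than in minusFoxp3 D0 cells, where 2079 of 20776 genes (10%) passed. Ldhb (chr6:142435975-142453683, minus strand) was 106 and 70.5 CPM against 8.86 and 16.3 CPM, a log2 fold change of 2.83 (SE 0.42, adjusted p = 0.000241). Slc2a3 was 231 and 222 CPM against 32.0 and 45.1 CPM, a log2 fold change of 2.58 (SE 0.33, adjusted p = 5.47e-05). Slc16a3 (chr11:120839306-120851694, plus strand), which encodes the lactate exporter MCT4, was 45.0 and 23.0 CPM against 7.60 and 10.6 CPM, a log2 fold change of 1.93 (SE 0.42, adjusted p = 0.0062). In each of these the 2 GFP Treg libraries lay above both minusFoxp3 libraries, though the GFP Treg libraries of Slc16a3 were themselves far apart, and its call was lost without minusFoxp3 replicate 1 (1.67) or GFP Treg replicate 1 (1.32). Bnip3 (1.75), P4ha1 (1.65), Aldoc (1.15) and Pdk1 (1.04) were the other 4 that were higher, with adjusted p of 0.000563, 0.00124, 0.00232 and 0.00246. That of Pdk1 was lost without minusFoxp3 replicate 1 (0.88) or GFP Treg replicate 2 (0.71).

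The 2 members that were lower in active GFP Treg cells are abundant enzymes of the pathway. Eno1 (chr4:150321178-150333336, plus strand) was 618 and 629 CPM against 986 and 1009 CPM (log2 fold change -0.65, SE 0.19, adjusted p = 0.0346), and Ldha (chr7:46490899-46505051, plus strand) was 1035 and 1060 CPM against 1631 and 1470 CPM (-0.54, SE 0.16, adjusted p = 0.0381). For both, the replicates lay close together and the groups did not overlap, yet both calls were lost without any one of the 4 libraries (-0.70 to -0.66 for Eno1, -0.65 to -0.50 for Ldha). The lowest value of either gene in the 44 libraries was that of active GFP Treg replicate 1. Leaving out minusFoxp3 replicate 1 or 2, or GFP Treg replicate 1 or 2, left 4, 7, 6 and 6 members called, where 5.52%, 7.13%, 6.05% and 6.54% of genes passed, and the median of the members was 0.05, against 0.0043 for all genes. Slc2a1 had a log2 fold change of 0.60 (SE 0.19, adjusted p = 0.054), Hk2 -0.89 (SE 0.42, adjusted p = 0.252) and Hif1a 0.45 (SE 0.24, adjusted p = 0.317). The proliferation genes summed to 189 to 240 CPM in active GFP Treg and 340 to 567 CPM in active minusFoxp3 D0 cells, and Ighm was 3754 to 3902 against 304 to 311 CPM.

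**Figure D2:**
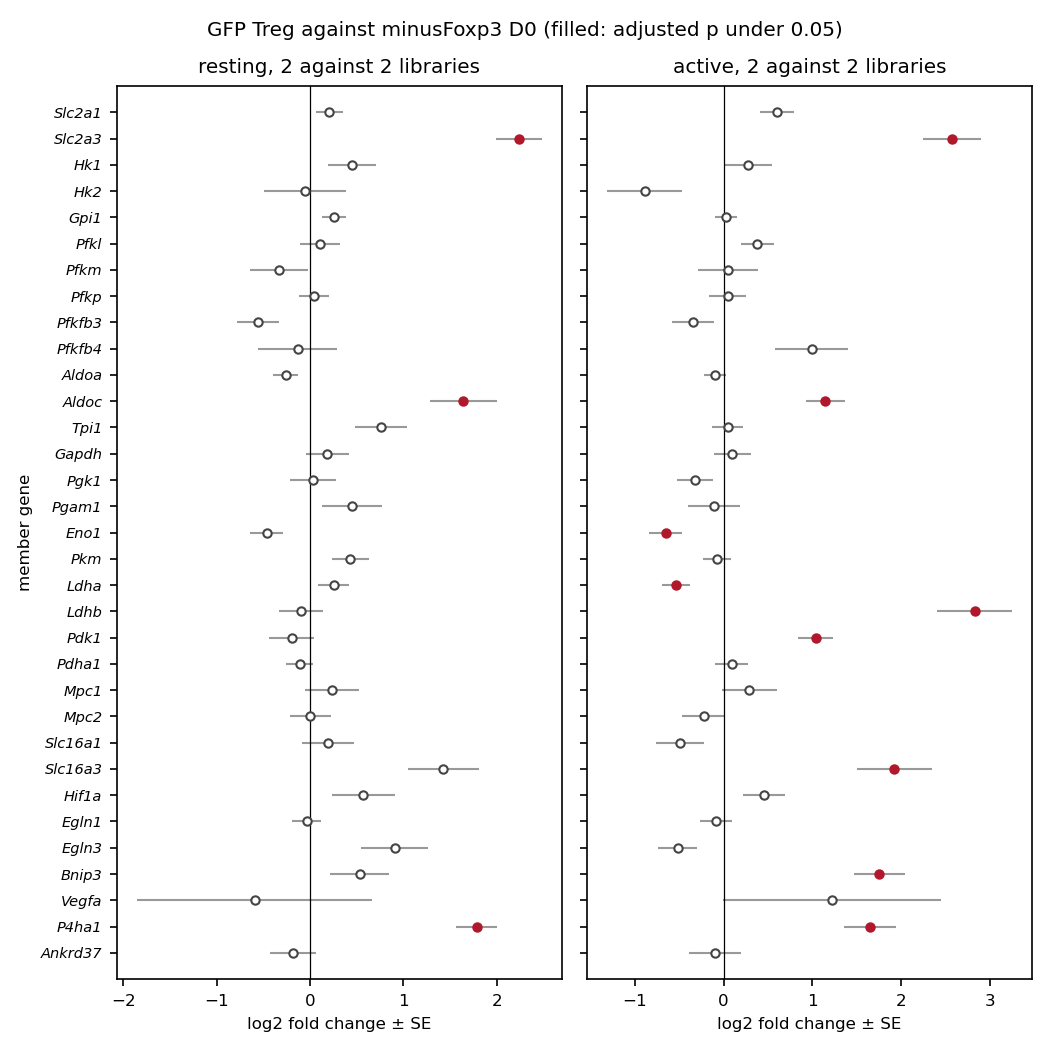
Log2 fold change with its standard error (x axis) of the members (y axis) between GFP Treg and minusFoxp3 D0 cells in resting (left) and active (right) cells; filled points have an edgeR adjusted p below 0.05. Slc2a3, P4ha1 and Aldoc are filled and higher in both panels, and Eno1 and Ldha are filled and lower in the active panel.

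The GFP Treg cells were also compared with plusFoxp3 D28 cells, in which Foxp3 had been restored for 28 days. This comparison shares its GFP Treg libraries with the one above. In resting cells, 0 of 33 members passed (0.0341% of genes passed), 2 members had an unadjusted p below 0.05 in edgeR, DESeq2 called 0, and the medians were -0.0088 and -0.0057. Such an unadjusted p was found for 813 of 20520 genes, and DESeq2 called 58. Slc2a1, Hk2, Ldha, Pdk1 and Hif1a had log2 fold changes of -0.27, -0.76, -0.02, -0.26 and 0.34 (adjusted p of 1.0 for each). In active cells, 0 members passed (2.01% of genes passed), 6 had an unadjusted p below 0.05 in edgeR, DESeq2 called 3 (3.94% of genes), and the medians were 0.12 and -0.0104. Here 2322 of 20776 genes had an unadjusted p below 0.05. P4ha1 had the lowest adjusted p, with 225 and 173 CPM in GFP Treg and 106 and 105 CPM in plusFoxp3 D28 (log2 fold change 0.91, adjusted p = 0.152), and 1 member was called without plusFoxp3 D28 replicate 2, where 2.48% of genes passed. Slc2a1, Hk2, Ldha, Pdk1 and Hif1a had 0.03, -0.56, -0.18, 0.24 and 0.66, with adjusted p of 0.979, 0.723, 0.777, 0.767 and 0.224. The minusFoxp3 cells themselves were compared between D28 and D0, and 0 members passed in either state, where 0% of genes passed. An unadjusted p below 0.05 in edgeR was found for 2 members in resting and 1 in active cells, and DESeq2 called 0 in both. Over all genes these were 752 and 549, and DESeq2 called 6 and 0 genes.

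Active and resting cells were compared within cells without Foxp3, cells with restored Foxp3 and GFP Treg cells, to ask how the members differ by activation. Between active and resting minusFoxp3 D0 cells, 7 members passed, 5 higher and 2 lower in active cells, where 13.4% of genes passed. Egln3 (chr12:54225767-54250646, minus strand), an oxygen sensor that is itself a HIF target, was 4.41 and 7.61 CPM in resting and 46.5 and 37.1 CPM in active cells, a log2 fold change of 2.79 (SE 0.31, adjusted p = 3.6e-07). Hif1a (chr12:73948149-73994304, plus strand) was 191 and 233 CPM against 429 and 578 CPM, a log2 fold change of 1.25 (SE 0.30, adjusted p = 0.00476), and its call was lost without resting replicate 1 (1.10) or active replicate 2 (1.01). Tpi1 was 98.2 and 90.7 CPM against 198 and 203 CPM, a log2 fold change of 1.09 (SE 0.24, adjusted p = 0.00233). For each of these the active libraries all lay above the resting ones. Aldoc (1.06, adjusted p = 0.0164) and Pkm (0.81, adjusted p = 0.00268) were also higher.

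The 2 members lower in active cells act on the fate of pyruvate. Ldhb was 87.5 and 82.6 CPM in resting and 8.86 and 16.3 CPM in active minusFoxp3 D0 cells (log2 fold change -2.75, SE 0.36, adjusted p = 3.88e-06). Pdk1 was 147 and 219 CPM against 48.1 and 57.9 CPM (-1.79, SE 0.23, adjusted p = 2.96e-06). The median of the members was 0.08 and that of all genes -0.0286. Slc2a1 had -0.42 (SE 0.16, adjusted p = 0.0978), Hk2 0.85 (SE 0.44, adjusted p = 0.223) and Ldha 0.31 (SE 0.17, adjusted p = 0.251). Leaving out 1 library left 4 to 7 members called, 4 without resting replicate 1 (8.03% of genes) and 5 without active replicate 2 (8.53% of genes). The proliferation genes summed to 120 to 163 CPM in resting and 340 to 567 CPM in active minusFoxp3 D0 cells.

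The 2 members that passed with restored Foxp3 were among these 7. Between active and resting plusFoxp3 D28 cells, Egln3 was higher in active cells, at 12.5 and 6.93 CPM in resting and 19.1 and 30.2 CPM in active cells (log2 fold change 1.34, SE 0.30, adjusted p = 0.00523), and Pdk1 was lower, at 165 and 216 CPM against 81.8 and 99.8 CPM (-1.07, SE 0.23, adjusted p = 0.00358). These 2 of 33 stand beside 5.30% of genes, with medians of 0.07 for members and 0.0069 for all genes. Both calls were lost without resting replicate 2 (0.995 and -0.84), that of Egln3 also without active replicate 2 (0.997) and that of Pdk1 without active replicate 1 (-0.95). Slc2a1 had -0.34 (adjusted p = 0.283), Hk2 -0.19 (adjusted p = 0.893), Ldha -0.33 (adjusted p = 0.313) and Hif1a 0.78 (adjusted p = 0.145). Ldhb was at 75.0 and 87.1 CPM in resting and 23.5 and 51.7 CPM in active plusFoxp3 D28 cells.

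Between active and resting GFP Treg cells, Egln3 and Hif1a were higher in active cells, where 3.12% of genes passed. Egln3 was 7.84 and 14.6 CPM in resting and 22.7 and 34.7 CPM in active cells (log2 fold change 1.34, SE 0.30, adjusted p = 0.0096), and no longer passed without resting replicate 1 (0.97) or active replicate 2 (1.01). Hif1a was 351 and 273 CPM against 852 and 502 CPM (1.09, SE 0.30, adjusted p = 0.0409), and no longer passed without resting replicate 1 (1.30), resting replicate 2 (0.91) or active replicate 1 (0.66). The medians were 0.14 for members and 0.001 for all genes. Ldhb was at 86.4 and 71.1 CPM in resting and 106 and 70.5 CPM in active GFP Treg cells, so that these groups overlapped, unlike those of minusFoxp3 D0. Slc2a1 had -0.05 (adjusted p = 0.932), Hk2 -0.01 (adjusted p = 0.994), Ldha -0.51 (adjusted p = 0.0982) and Pdk1 -0.59 (SE 0.23, adjusted p = 0.178). Whether the difference between active and resting GFP Treg cells itself differs from that of minusFoxp3 D0 cells was not tested.

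**Figure D3:**
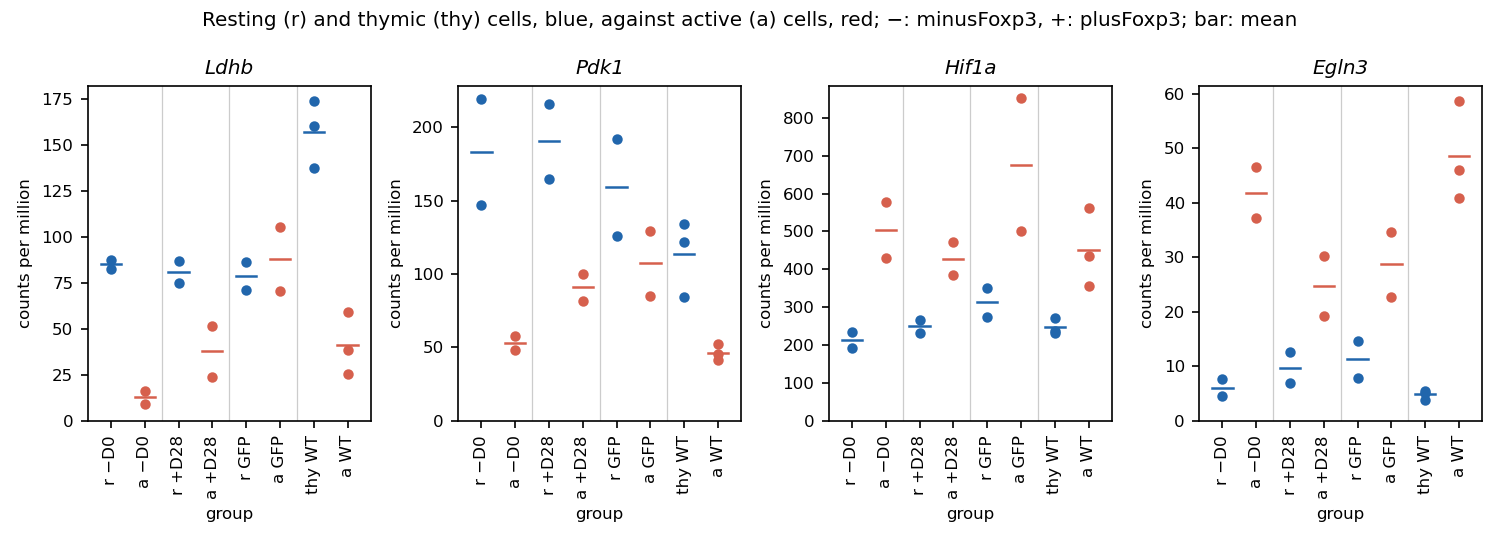
CPM (y axis) of Ldhb, Pdk1, Hif1a and Egln3 in each library of resting or thymic cells (blue) and active cells (red), for minusFoxp3 D0, plusFoxp3 D28, GFP Treg and adult degron WT cells (x axis); bars are group means. Egln3 is higher in the active libraries of all 4 pairs. Among minusFoxp3 D0, plusFoxp3 D28 and GFP Treg cells, Ldhb in active cells is lowest in minusFoxp3 D0, at 8.86 and 16.3 CPM. Levels of the degron libraries, counted with other settings, are not compared with these.

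Thymic and active Treg cells of adult degron WT mice differed in 16 of 33 members, 6 higher and 10 lower in the thymus, where 23.0% of genes passed. The median of the members was -0.30, against -0.0348 for all genes. Egln3 was 5.14, 3.85 and 5.37 CPM in thymic and 40.9, 58.7 and 46.0 CPM in active cells, a log2 fold change of -3.43 (SE 0.35, adjusted p = 2.03e-05). Tpi1 was 72.0, 91.9 and 78.0 CPM against 258, 217 and 211 CPM (-1.60, SE 0.17, adjusted p = 3.22e-05). Pfkp, the platelet-type phosphofructokinase gene, was 145, 124 and 134 CPM against 197, 231 and 321 CPM (-0.98, SE 0.18, adjusted p = 0.00165). None of the thymic libraries of these genes reached an active one. Hif1a (-0.96), Aldoa (-0.89), Pfkl (-0.84), Pkm (-0.74), the phosphoglycerate kinase gene Pgk1 (-0.63), Gpi1 (-0.46) and Ldha (-0.43) were also lower in the thymus, so that 8 of the 10 encode enzymes between glucose-6-phosphate and lactate and the other 2 are HIF genes.

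Higher in the thymus were Ldhb, at 160, 174 and 138 CPM against 59.1, 38.4 and 25.2 CPM (log2 fold change 1.85, SE 0.25, adjusted p = 0.000174), and Ankrd37, a HIF target of little-known function, at 22.1, 33.3 and 30.4 CPM against 9.12, 8.75 and 8.08 CPM (1.63, SE 0.31, adjusted p = 0.00219). Slc16a3 (1.41), Pdk1 (1.21) and the pyruvate dehydrogenase subunit gene Pdha1 (0.45) were also higher. Vegfa (chr17:46327919-46343295, minus strand) was at 1.70, 1.91 and 0.207 CPM in thymic WT cells and at 0 in all 6 active degron libraries. Against a floor of 3 counts over the active WT group (0.0320 CPM), thymic WT cells held at least 39.8-fold more Vegfa RNA. Its adjusted p was 0.0298, and the call was lost in 5 of the 6 fits that left out 1 library (thymus WT replicate 1 or 2, or any active WT replicate). The Vegfa level rested on 111 counts over the 3 thymic WT libraries, with 6 to 57 in each. Summed proliferation genes were 37.1 to 85.3 CPM in the thymic and 492 to 684 CPM in the active degron libraries. Ighm was 126 to 175 against 905 to 1445 CPM, and a list of 5 CD8 and NK cell genes summed to 54.1 to 63.4 against 17.8 to 27.7 CPM, mostly Cd8b1 (46.9 to 58.9 against 11.1 to 20.6 CPM), with Cd8a at 0 in the active libraries. The part of these in the results was not tested. With 1 library left out, 13 to 16 members passed. Thymus and peripheral cells were also sorted by different surface markers.

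Degradation of Foxp3 protein in adult mice gave no member that passed the edgeR test. Between TIR1 and WT thymic cells, 0 of 33 members passed (0% of 14245 genes passed). An unadjusted p below 0.05 in edgeR was found for 4 members and for 1050 of all genes tested. DESeq2 called 0 members and 156 of all genes. Ankrd37 was 20.2, 13.8 and 14.0 CPM in TIR1 and 22.1, 33.3 and 30.4 CPM in WT (log2 fold change -0.84, SE 0.26), and the monocarboxylate transporter gene Slc16a1 was 41.9, 57.3 and 43.97 CPM against 38.5, 22.1 and 30.3 CPM (0.65, SE 0.24). These 2, Eno1 (0.24) and Pdha1 (0.19) were the 4, and the lowest adjusted p was 0.566. The medians were 0.0167 for members and -0.0022 for all genes. Slc2a1 had -0.21 (SE 0.19), Hk2 -0.55 (SE 1.30), Ldha -0.03 (SE 0.06), Pdk1 0.11 (SE 0.17) and Hif1a -0.13 (SE 0.09), with adjusted p of 0.903, 0.99, 0.988, 0.983 and 0.835.

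Between TIR1 and WT active cells, 0 of 32 members tested passed (0% of 14554 genes passed), and Vegfa was not tested because it had no counts. An unadjusted p below 0.05 in edgeR was found for 3 members, Slc2a3, Egln1 and Pdk1, and for 672 of all genes tested. Slc2a3 was 36.2, 17.5 and 25.4 CPM in TIR1 and 66.9, 61.9 and 60.0 CPM in WT, with no overlap between the groups. Its log2 fold change was -1.29 (SE 0.27), with an adjusted p of 1.0 in edgeR and of 0.0103 in DESeq2, which called 0.144% of genes and no other member. Egln1 was 35.9, 49.9 and 49.3 CPM against 29.2, 31.5 and 29.8 CPM (0.54, SE 0.21), and Pdk1 was 60.1, 63.2 and 64.6 CPM against 41.1, 45.3 and 52.0 CPM (0.41, SE 0.17). These too did not overlap, and both have an adjusted p of 1.0. How many of all genes did not overlap between these groups was not counted, so the lack of overlap has no background. Slc2a1 had -0.14 (SE 0.22), Hk2 -0.09 (SE 0.53), Ldha -0.10 (SE 0.11) and Hif1a 0.13 (SE 0.20), each with an adjusted p of 1.0. The medians were -0.05 for members and -0.0091 for all genes.

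The test of whether the TIR1 to WT difference itself differed between thymic and active cells passed for 0 members (0% of 14769 genes). Slc2a3 was the one member with an unadjusted p below 0.05 in edgeR (1.01, SE 0.33, adjusted p = 0.684), and DESeq2 called 0 members. For all genes the counts were 984 with such an unadjusted p and 71 called by DESeq2. In thymic cells Slc2a3 was 48.9, 53.5 and 45.8 CPM in TIR1 and 48.8, 70.3 and 59.5 CPM in WT, where the groups overlapped.

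**Figure D4:**
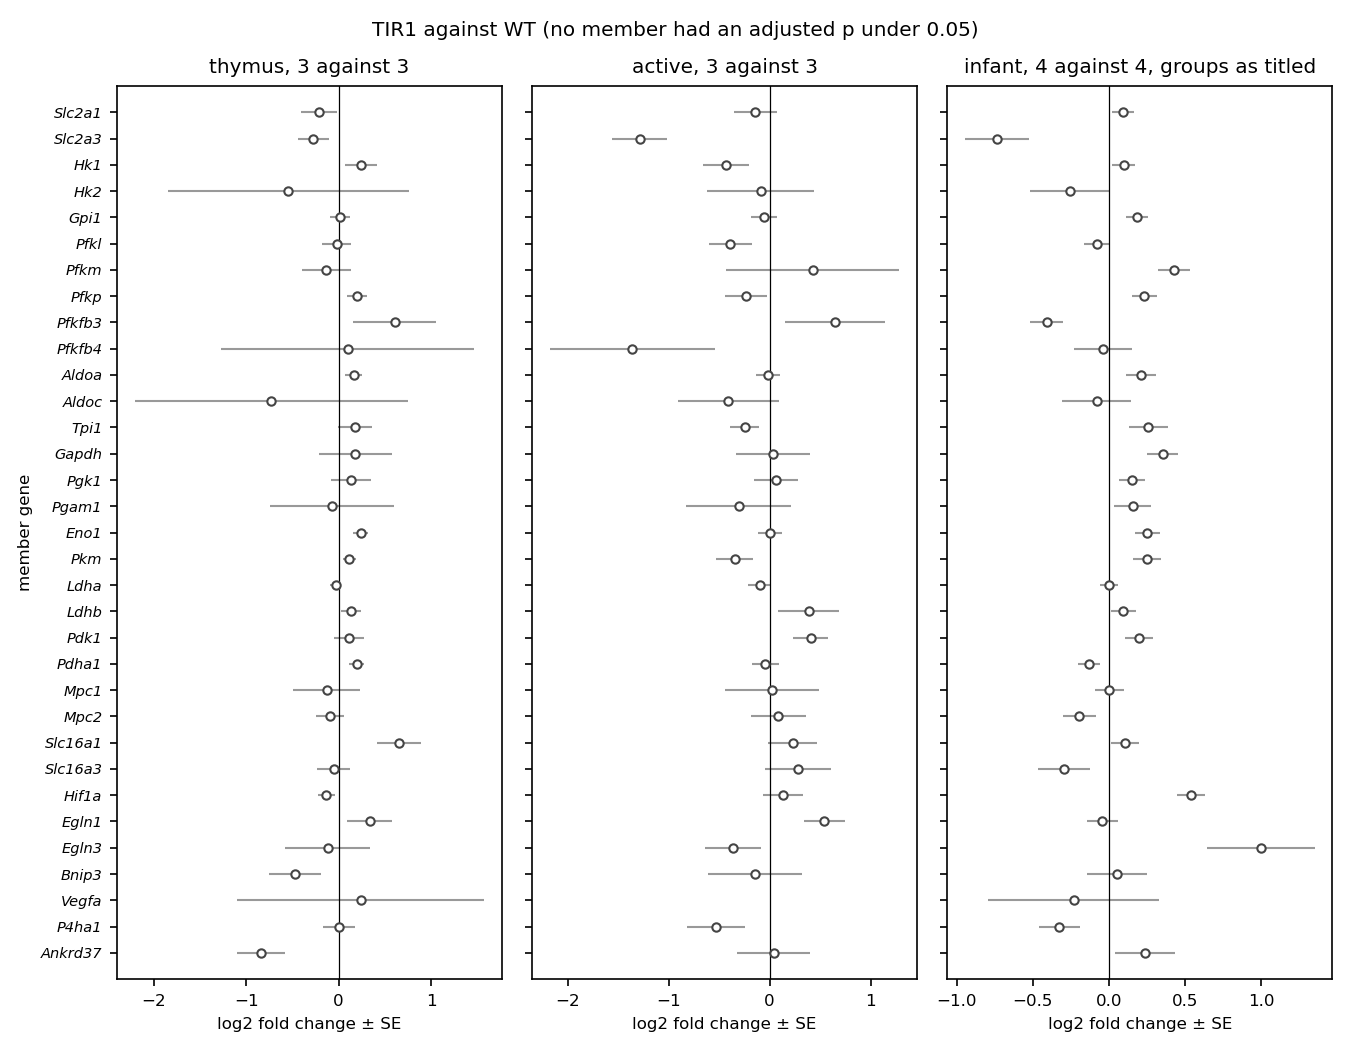
Log2 fold change with its standard error (x axis) of the members (y axis) between TIR1 and WT cells in adult thymic, adult active and infant Treg cells (3 panels, infants by title); open points have an edgeR adjusted p of 0.05 or more. All points are open, and Slc2a3 lies at -1.29 in active cells and -0.74 in infant cells.

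In infant Treg cells, 0 of 33 members passed with all 8 libraries (0.0185% of 16209 genes passed), although 11 had an unadjusted p below 0.05 in edgeR, and DESeq2 called 6 members and 6.83% of genes. Over all 16209 genes, 2827 had an unadjusted p below 0.05. Hif1a was 434, 430.2, 390.5 and 384 CPM in titled TIR1 and 290.0, 244, 272 and 336 CPM in titled WT, with no overlap between the groups (log2 fold change 0.54, SE 0.09, adjusted p = 0.0652). Pfkm, the muscle-type phosphofructokinase gene, was 25.4, 25.6, 24.1 and 26.6 CPM against 19.7, 17.3, 17.3 and 22.3 CPM (0.43, SE 0.11, adjusted p = 0.102). Pfkfb3, a phosphofructokinase-2 gene, was 28.5, 25.6, 23.8 and 23.0 CPM against 36.4, 36.7, 33.03 and 29.4 CPM (-0.41, SE 0.11, adjusted p = 0.106). These 3 members did not overlap between the groups. How many of all genes did not overlap was not counted, so this has no background. Slc2a3 was 42.3, 46.7, 37.9 and 51.7 CPM against 84.4, 90.4, 83.3 and 43.5 CPM (-0.74, SE 0.21, adjusted p = 0.128), so that titled WT replicate 4 lay among the titled TIR1 libraries. Egln3 was 12.0, 10.04, 7.54 and 13.9 CPM against 6.47, 3.10, 3.08 and 9.41 CPM (1.00, SE 0.35, adjusted p = 0.186). Gapdh, Eno1, Pfkp, Pkm, Gpi1 and P4ha1 made up the 11, with log2 fold changes of 0.35, 0.25, 0.23, 0.25, 0.18 and -0.33.

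Without titled WT replicate 4, 11 members passed, 8 higher and 3 lower in titled TIR1, where 11.0% of 16136 genes passed. Higher were Egln3 (1.39, adjusted p = 0.00967), Hif1a (0.63, adjusted p = 0.000357) and Pfkm (0.51, adjusted p = 0.0102), together with the glycolytic enzyme genes Gapdh (0.45), Eno1 (0.35), Pkm (0.34), Pfkp (0.31) and Aldoa (0.30). Lower were Slc2a3 (-0.93, adjusted p = 0.000217), Pfkfb3 (-0.47, adjusted p = 0.0132) and P4ha1 (-0.44, adjusted p = 0.0164). The median of the members was 0.09 with all libraries, against -0.0052 for all genes, and 0.08 without that library. Slc2a1 had 0.09 (SE 0.07, adjusted p = 0.556), Hk2 -0.26 (SE 0.26, adjusted p = 0.66), Ldha -0.0014 (SE 0.06, adjusted p = 0.995) and Pdk1 0.20 (SE 0.09, adjusted p = 0.302) with all libraries. Summed proliferation genes were 923 to 1491 CPM in titled TIR1 and 310 to 906 CPM in titled WT, and their part in these differences was not tested. If the genotype label and not the title is right, each sign is the opposite.

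**Figure D5:**
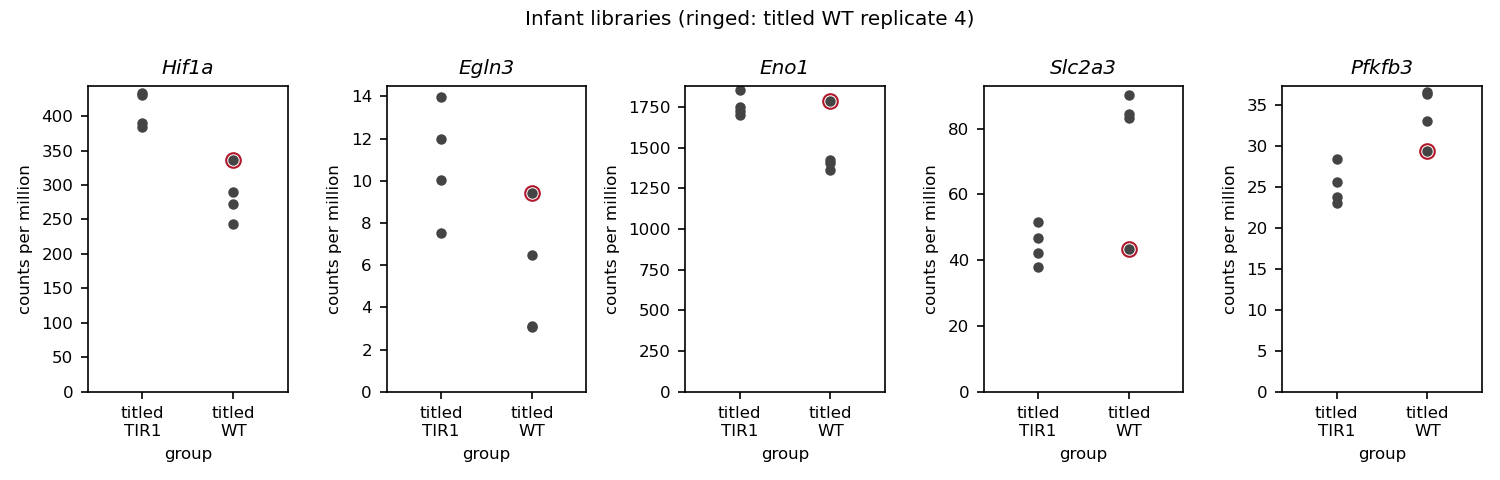
CPM (y axis) of Hif1a, Egln3, Eno1, Slc2a3 and Pfkfb3 in each infant library (x axis: titled WT and titled TIR1, 4 libraries each); titled WT replicate 4 is ringed. The ringed library reads 1787 CPM for Eno1 and 43.5 CPM for Slc2a3, among the titled TIR1 libraries.

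Across the 25 comparisons, 22 of the 33 members were called at least once. How many of all genes were called at least once was not counted, so this count has no background. Between thymic and active WT cells alone, 16 members were called, where 23.0% of all genes passed. Slc2a3 was called in 6, each time higher with Foxp3 or in GFP Treg cells, Pdk1 in 5, Egln3 in 4, and Aldoc, P4ha1, Ldhb and Hif1a in 3 each. Those called in none were Slc2a1, the constitutive hexokinase gene Hk1, Pfkm, Pfkfb3, Pfkfb4, Gapdh, the phosphoglycerate mutase gene Pgam1, Mpc1, Mpc2, Slc16a1 and Egln1. Because several comparisons share libraries, these counts are not independent.

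Other genes of the same pathways were followed as 2 further lists, of 37 genes of glycolysis and its branches and 32 genes of the HIF pathway (subunits, regulators and targets), of which 28 to 32 and 25 to 31 were tested. Between active GFP Treg and minusFoxp3 D0 cells, 7 of the glycolysis list passed, among them the enolase genes Eno2 (2.14) and Eno3 (1.26) and the pyruvate dehydrogenase kinase gene Pdk2 (1.16), which were higher, and Pgam2 (-1.52) and G6pdx (-0.58), which were lower. Of the HIF list, Hif3a (3.13) was higher and Plod2 (-3.51) and Bhlhe40 (-1.61) were lower. After Foxp3 was switched on, Egln2 was higher at D7 (0.70) and Plod2 lower at D28 (-1.71) in active cells, and Plod2 was lower still in active GFP Treg than in plusFoxp3 D28 cells (-1.70). In resting cells Pgd (0.64) was higher in GFP Treg than in minusFoxp3 D0 cells.

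Between active and resting minusFoxp3 D0 cells, 5 of 32 tested genes of the glycolysis list passed, with Slc2a6 (4.67), Pgam2 (1.91) and G6pdx (0.60) higher and Eno3 (-1.22) lower. Of the HIF list, 5 of 30 were higher, led by Bhlhe40 (3.07), Plod2 (2.33) and Ero1a (1.08), beside 13.4% of all genes passing. In plusFoxp3 D28 cells, Eno3 was lower in active cells (-1.22) and Epas1 (3.10) and Bhlhe40 (2.92) were higher (1 of 32 and 2 of 30, beside 5.30% of genes). In GFP Treg cells Bhlhe40 (1.78), 1 of 30, was higher, beside 3.12% of genes. Between thymic and active WT cells, 23.0% of all genes passed. On the glycolysis list 10 of 28 passed, with Eno2 (3.64), Eno3 (3.598) and Pdk2 (1.47) higher and Slc2a8 (-1.90), Pgm1 (-0.85) and G6pdx (-0.54) lower in the thymus. On the HIF list 6 of 26 passed, with Ndrg1 (1.91) and Slc7a5 (0.75) higher and Epas1 (-5.41) and Bhlhe40 (-1.76) lower. Car9 passed as lower too, with no count in any thymic WT library. In the remaining comparisons, 0 genes of a list passed in edgeR, 0 to 8 genes had an unadjusted p below 0.05 and DESeq2 called 0 to 4. Of all 14245 to 20790 genes tested in these, 549 to 3045 had such an unadjusted p and DESeq2 called 0 to 1172.

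The genes whose group means ran most like those of 3 members over the 22 resting, active and GFP Treg groups were found among 12399 genes by Spearman's rho. For Slc2a1 they were Sidt1 (0.925), Gm18588 (0.922) and Il4ra (0.921). For Pdk1 they were Ifit2 (0.953), Ift80 (0.951) and Spata6 (0.947), and for the sparsely counted Hk2 they were Tor1a (0.862), Ccdc124 (0.85) and Chmp6 (0.823). The groups share state, day and library set, so these values are descriptions.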

How the data were processed

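Per the study's methods, RNA of sorted cells was amplified with SMART-Seq v4 and sequenced in pairs. The deposited values are raw counts of read pairs per gene name, made by the authors with featureCounts 2.0.3 on GENCODE mouse release 30 (GRCm39), without strand. The 20 degron libraries were also limited to primary alignments and to a minimum mapping quality of 30. The study's methods name the STAR aligner, and infant table headers carry file names in its style, whereas the submitters' processing notes list Bowtie2. Tables of the adult degron libraries were assigned by the library name in their headers, and infant groups by title.

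The members and gene lists were chosen with earlier results of these data known. Genes whose counts averaged 10 or more across the fitted libraries were tested with edgeR 4.0.16 (TMM scaling, robust quasi-likelihood test, R 4.3.3). One fit each was made for the 22 resting and the 22 active libraries, all 44, thymic, active and infant degron libraries, and the 12 adult degron libraries. Results with an adjusted p below 0.05 were called, and standard errors were taken from the same fit. The fits were also run on simulated counts with known changes, drawn without a batch or an outlying library. That check was set on the median size of the estimated changes, not on false or missed calls. With up to 6 members called, all were described with their statistics, and otherwise the 3 with the largest change in each direction. Slc2a1, Hk2, Ldha, Pdk1 and Hif1a were described in the main comparisons whether called or not. Alternatives were DESeq2 1.42.0, its size factors in edgeR, no filter on low counts, only the libraries compared, a replicate block, 1 library left out, and adult degron tables assigned by attachment. Total counts were 27753211 to 34029692 in the adult degron libraries, 33704114 to 55801009 in the infant libraries and 35097257 to 57419138 in the other 44. A library left alone in its group was assumed to vary as the other groups do. A floor of 3 counts covers counting error only. Copies of members were found with minimap2 2.31. Replicate numbers were not taken as pairs, because the labels tie no number to an animal or batch and the correlations of same-numbered libraries were -0.212 to 0.481 where groups held 2 libraries and -0.287 to 0.188 between degron groups.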

Additional observations from a re-analysis of the deposited data

Results flagged for a closer look

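In the infant groups, the only groups of at least 4 libraries, 5 of 66 sets of 4 values had a highest or lowest library set apart from the other 3 by more than Dixon's 95% critical value for the gap as a share of the range (chance does this in about 1 in 20 groups). Titled WT replicate 4 accounted for 4 of them. It had the lowest Slc2a3, at 43.5 CPM, where the other 3 titled WT libraries had 83.3 to 90.4 CPM. Its Aldoa was the highest, at 468 CPM against 362 to 375 CPM, and so was its Eno1, at 1787 CPM against 1362 to 1422 CPM. Its Mpc2, one of the mitochondrial pyruvate carrier genes, was the lowest, at 37.8 CPM against 45.4 to 45.9 CPM. For Slc2a3, Aldoa and Eno1, these values lay within the range of the titled TIR1 libraries. The fifth was Pdk1 in titled TIR1 replicate 2, at 181 CPM against 207 to 209 CPM in the other 3.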

How the results depend on the processing

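Counts of called members, each with the share of all tested genes called in the same fit, varied with the processing as follows, and the cause was not tested. With no count filter, 2 (1.35%), 1 (1.00%), 3 (1.35%) and 5 members (2.92%) were called in resting cells at D3, D7, D14 and between GFP Treg and minusFoxp3 D0. In active cells these fits called 1 (1.17%), 5 (2.02%), 3 (1.72%) and 3 (2.39%) at D3, D7, D14 and D28 and 4 (2.47%) between GFP Treg and plusFoxp3 D28. They also called 4 (3.97%) between active and resting plusFoxp3 D28 cells, 2 (0.980%) in the difference of the Foxp3 effect between states and 1 (0.505%) in infants. DESeq2 called 1 (0.716%) and 3 (1.43%) in resting cells at D7 and D14, 5 (2.32%), 3 (2.49%) and 3 (3.82%) in active cells at D7, D14 and D28, 3 (3.94%) between active GFP Treg and plusFoxp3 D28, 1 (0.144%) in active degron and 6 (6.83%) in infant cells. Fits of only the libraries compared called 2 (1.01%), 0 (0.0396%) and 0 (0.136%) in resting cells at D3, D14 and D28, 0 (0.0190%), 1 (0.939%) and 2 (0.929%) in active cells at D7, D14 and D28, and 0 between active and resting plusFoxp3 D28 (0.139%) and GFP Treg cells (2.42%). With a replicate block, 2 (0.424%) were called in resting cells at D14, 6 (3.71%) between resting GFP Treg and minusFoxp3 D0, 1 (0.890%) and 2 (2.12%) in active cells at D14 and D28, and 4 (4.54%) between active and resting GFP Treg cells. The other block fits stayed within 1.5 times the reported count. Replicate 1 was higher than replicate 2 in 19 of 22 groups for Ldha and Mpc2, in 18 for Mpc1 and Aldoc and in 17 for Pgk1, Pgam1 and Eno1. Replicate 2 was higher in 16 for Pdk1, while Pfkl and Pfkp were split at 11 and 11. In the library names, every replicate 1 of these groups also has a lower library number than every replicate 2. This hints that same-numbered libraries share something, but whether the numbers mark a batch is not stated. The main tests did not take them into account.

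With 1 library left out, the counts ranged from 0 to 3 (D0), 0 to 0 (D3), 0 to 1 (D14), 0 to 2 (D28) and 2 to 2 (GFP Treg and minusFoxp3 D0) in resting cells. In active cells they ranged from 0 to 8 (D7), 0 to 2 (D28), 4 to 7 (GFP Treg and minusFoxp3 D0) and 0 to 1 (GFP Treg and plusFoxp3 D28). Between active and resting cells they were 4 to 7, 0 to 2 and 0 to 1 in minusFoxp3 D0, plusFoxp3 D28 and GFP Treg cells, in infants 0 to 11, and between thymic and active WT cells 13 to 16. With adult degron tables assigned by attachment, the median log2 fold change of the members turned to -0.0167 in thymic and 0.0503 in active cells and -0.0745 in their difference, and between thymic and active WT cells 14 members were called with a median of -0.0488. The naming rule chose 32 differences of called members. Apart from the assignment by attachment, for which single genes were not followed, these changed sign in none of the alternatives, but lost their call in 52 of 140 fits with 1 library left out and 14 of 32 fits of only the libraries compared. Groups of 2 libraries limit what these tests can detect.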
